A study of Mus musculus with 3 samples.

Results

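The genes described here handle iron: the ferritin heavy chain Fth1, the ferritin light chain Ftl1, the iron exporter Slc40a1, the metal carriers Slc11a1 and Slc11a2, the transferrin receptor Tfrc and the ferroxidase Cp. They were taken by symbol, 7 of 33696 genes in the deposited tables, and were counted in 12297 of 15809 cell barcodes. A barcode was used if it had at least 500 unique molecular identifiers (UMIs, each standing for 1 captured RNA molecule), at least 300 detected genes and at most 10% of its UMIs from mitochondrial genes. The cells were airspace immune cells washed from the right lung lobes by bronchoalveolar lavage and profiled by droplet sequencing of transcript 3' ends. They came from wild type C57BL/6J mice aged 12 weeks, which had been kept for 3 hours in filtered air, in ozone at 1 ppm or in ozone at 1.5 ppm. Lavage followed 22 to 24 hours after exposure, and cells of 3 to 4 mice were pooled in each group. Each group was therefore 1 library. There is no replicate, no test between groups and no p-value. Every interval below is a 95% interval for counting error only, which does not include differences between mice, days or library preparations. The intervals of levels and ratios also leave out the uneven spread of a gene's UMIs over cells. Group, pool and library cannot be told apart.

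Ferritin is a hollow protein shell of heavy and light chains that stores iron inside cells; the heavy chain carries the ferroxidase activity and the light chain favours mineralisation of the core. Slc40a1 encodes ferroportin, the exporter of iron from mammalian cells, and Cp encodes ceruloplasmin, which oxidises iron so that transferrin can bind it. Tfrc brings transferrin-bound iron in, Slc11a2 (DMT1) carries it out of endosomes and Slc11a1 (NRAMP1) moves metal ions across the phagosome membrane of phagocytes. Alveolar macrophages, the resident phagocytes of the airspace, take up inhaled particles, surfactant and red cells, and so meet iron from several sources.

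Several of these transcripts carry iron-responsive elements, short hairpins to which iron regulatory proteins bind when iron is scarce. They are shown because they place Fth1, Ftl1 and Slc40a1 on one side of that control, through the start of the transcript, and Tfrc on the other, through its end. The annotated untranslated regions of mouse transcripts (GENCODE M21, build GRCm38, sense strand only) were searched for a C, 5 bases, the loop CAGTGN and 5 bases that pair with the first 5, G to T pairs allowed. Of the 7 genes 4 had such a site, and of 21901 protein-coding genes 160 did (0.731%). Each 30-base window is given 5' to 3', the Tfrc sites in transcript order, with the bulged C and the loop in capitals.
Fth1, 5' UTR, chromosome 19: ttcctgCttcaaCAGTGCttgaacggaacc
Ftl1, 5' UTR, chromosome 7: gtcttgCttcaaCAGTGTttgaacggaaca
Slc40a1, 5' UTR, chromosome 1: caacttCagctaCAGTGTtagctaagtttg
Tfrc, 3' UTR, chromosome 16, site 1: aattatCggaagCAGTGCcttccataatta
Tfrc, 3' UTR, chromosome 16, site 2: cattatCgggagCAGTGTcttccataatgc
Tfrc, 3' UTR, chromosome 16, site 3: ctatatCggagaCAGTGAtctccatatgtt
Tfrc, 3' UTR, chromosome 16, site 4: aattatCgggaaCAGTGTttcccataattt
The site lay in 4 of 5 coding transcripts of Fth1, 1 of 2 of Ftl1, 1 of 4 of Slc40a1 and 1 of 3 of Tfrc, and a 3' end library does not tell these transcripts apart. Slc11a1, Slc11a2 and Cp held no match, which says only that these letters are not in their annotated untranslated regions. All 5 pairs were required, so an element with a mismatched or extra base in that stem would not have been found. The search thus does not show that these genes lack an iron-responsive element. A match is a sequence feature, and these data hold no measure of protein binding or of iron.

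The libraries held 59359742 UMIs in 5307 barcodes after filtered air, 42825676 in 3233 after 1 ppm and 95403078 in 7269 after 1.5 ppm. The mitochondrial limit removed 34.2%, 30.6% and 9.07% of barcodes in these libraries, which left 3479, 2241 and 6577 cells. Clusters were made without the 7 genes, and 12 clusters of 10308 cells were named alveolar-macrophage-like. Each of the 12 fixed markers of that class was found in it, in 43.6% of cells for Marco and up to 99.97% for Chil3. By the marker scoring described under processing, 5 of the 12 counted for cluster 14, and 8 to 12 for each other cluster of the class. The class numbered 3012, 1996 and 5300 cells (86.6%, 89.1% and 80.6% of those kept), with median UMIs per cell of 13951.5, 16044.0 and 13306.5. Cluster 1, led by Dnah11 and Lepr, was its largest cluster after filtered air, cluster 0, led by Ear2 and Fabp1, after 1 ppm, and cluster 2, led by Il1b and Fdps, after 1.5 ppm. Cluster 8, led by the antigen presentation gene Cd74, was kept out of the class because the airway marker Epcam was among its leading genes. By markers it was still most like this class, with 10 of the 12 counted. It held 8.25%, 6.11% and 5.70% of the cells. Pairs of libraries shared 4 to 10 barcodes.

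**Figure D1:**
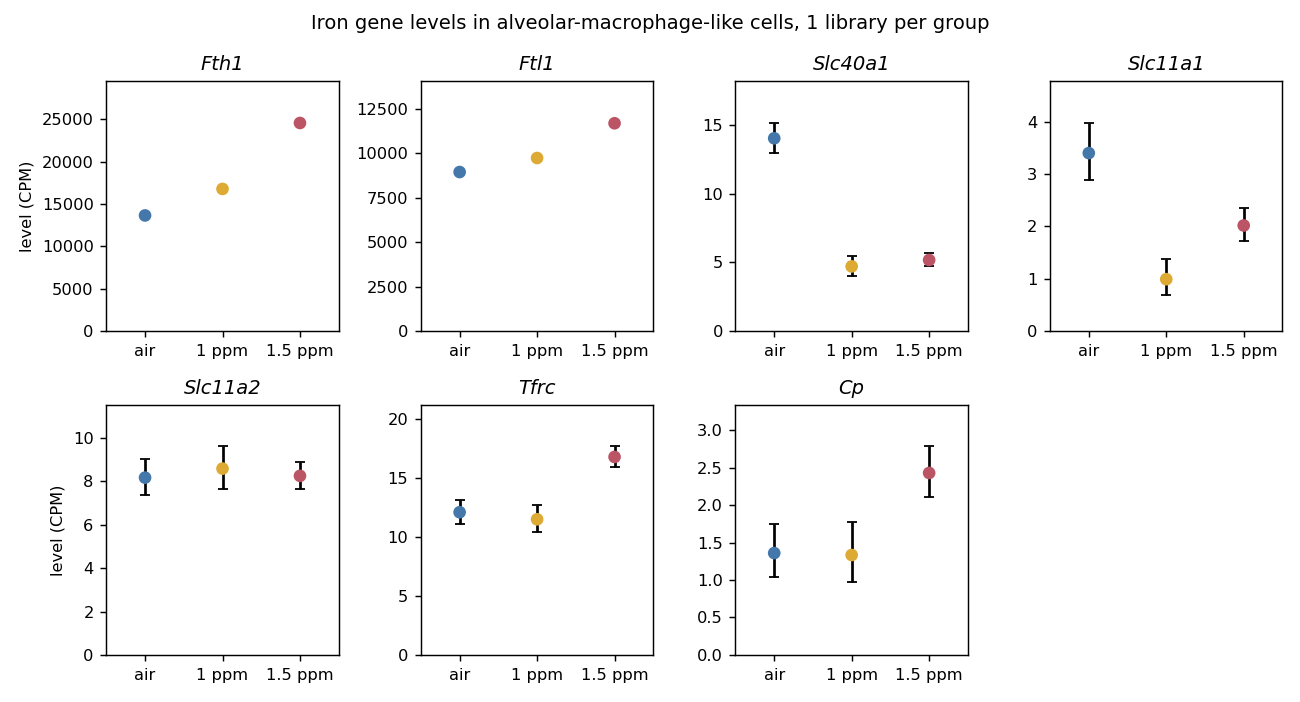
Level of each gene in counts per 1000000 UMIs (CPM, linear axes starting at 0) in alveolar-macrophage-like cells of the filtered air, 1 ppm and 1.5 ppm ozone libraries, 1 point per library, with 95% Poisson intervals that are smaller than the point for Fth1 and Ftl1. Fth1 stands at 13660, 16790 and 24570 CPM, while Slc40a1 stands at 14.01 CPM in filtered air and at 4.71 and 5.17 CPM in the ozone libraries.

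Iron storage genes were higher in macrophages of both ozone libraries than in those of filtered air, and the heavy chain more than the light chain. Levels are the class's summed UMIs in CPM, which compare 1 gene between libraries and not 1 gene with another. Fth1 (ENSMUSG00000024661) stood at 13660 CPM after filtered air, 16790 CPM after 1 ppm and 24570 CPM after 1.5 ppm, from 623136, 592282 and 2094972 UMIs. Its 3 intervals do not overlap, and its level was 1.23 times that of filtered air at 1 ppm (interval 1.225 to 1.234) and 1.80 times at 1.5 ppm (1.794 to 1.804). Set against 1 ppm, 1.5 ppm had 1.46 times the level (1.459 to 1.467). Ftl1 (ENSMUSG00000050708) stood at 8948, 9737 and 11690 CPM. The light chain followed the same order with smaller steps, 1.09 times the level of filtered air at 1 ppm (1.08 to 1.09) and 1.31 times at 1.5 ppm (1.30 to 1.31). Ftl1-ps1, a near-identical copy that can share reads with Ftl1, had 59.8, 72.8 and 74.3 CPM, so how many light chain reads were split between them is uncertain.

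The balance of the chains differed in the same order. There were 1.53 Fth1 UMIs for each Ftl1 UMI after filtered air (interval 1.52 to 1.53), 1.73 after 1 ppm (1.72 to 1.73) and 2.10 after 1.5 ppm (2.10 to 2.11). With Ftl1-ps1 counted as light chain the ratios were 1.52, 1.71 and 2.09. Both chains together took 2.26%, 2.65% and 3.63% of all UMIs in the class. The ratio was 1.65, 1.90 and 1.98 in cluster 8, and 1.87 after filtered air and 2.01 after 1.5 ppm in C1q-macrophage-like cells, so the order of the libraries was the same in both, from 287, 137 and 375 cells and from 59 and 101 cells.

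Ferritin per cell lay higher at 1.5 ppm than after filtered air at each of the 3 percentiles given here. With each cell thinned to 5000 UMIs, the median macrophage gave 1.72% of its UMIs to Fth1 and Ftl1 after filtered air, 2.04% after 1 ppm and 2.48% after 1.5 ppm. The 5th percentile was 0.340%, 0.760% and 0.740%, and the 95th percentile 5.74%, 5.53% and 8.62%. At 1 ppm the low end and the middle were thus above those of filtered air and the high end was not, while at 1.5 ppm all 3 points were above. Thinning left out 60, 40 and 323 cells that were too shallow. Fth1 had a UMI in every unthinned cell of the class. No class in these data lacks ferritin, so the level of free ferritin RNA in the droplets was not measured.

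**Figure D2:**
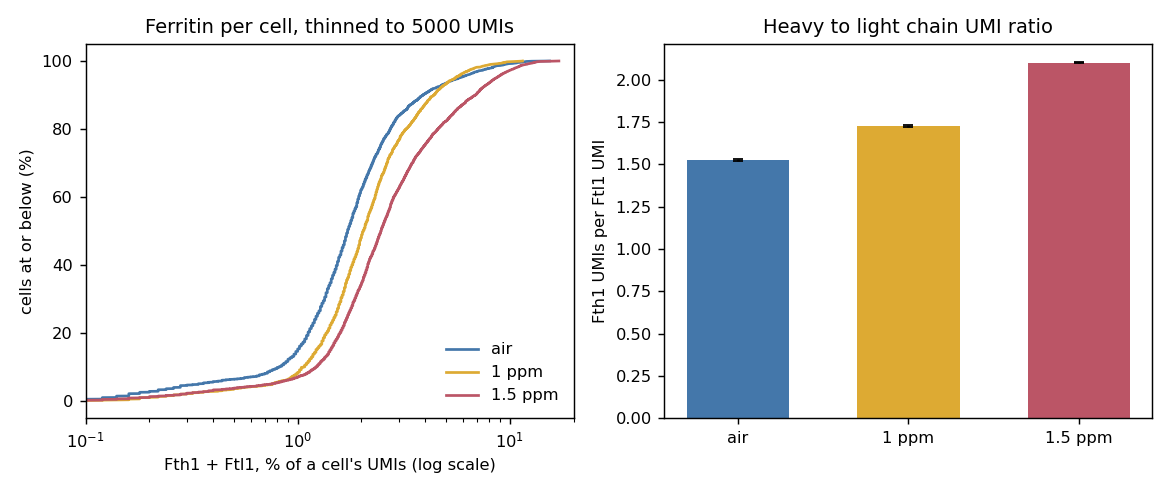
Left, cumulative share of alveolar-macrophage-like cells against the percentage of a cell's UMIs that came from Fth1 and Ftl1 (log axis, cells thinned to 5000 UMIs), 1 line per library. Right, Fth1 UMIs per Ftl1 UMI in the same class (unthinned, 95% intervals), at 1.53, 1.73 and 2.10 in the filtered air, 1 ppm and 1.5 ppm libraries.

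The higher Fth1 level was found inside the clusters as well as over the class. In the 11 clusters with at least 50 cells in both the 1.5 ppm and the filtered air library, Fth1 was higher at 1.5 ppm in 11 of 11, by 0.08 to 1.78 on the log2 scale with a median of 0.54. It was higher at 1 ppm in 10 of 10 clusters, by 0.04 to 0.73. Ftl1 was higher in 11 of 11 clusters at 1.5 ppm and in 8 of 10 at 1 ppm. At 1 ppm the ratio to filtered air was larger for Ftl1 than for Fth1 in cluster 3 (1.105 and 1.024) and cluster 11 (1.605 and 1.567). In the other clusters it was larger for Fth1, as in all clusters at 1.5 ppm. The step of Fth1 differed widely between clusters. In cluster 11, led by the mitosis genes Ube2c and Cenpf, Fth1 had 28350 CPM after 1.5 ppm, against 8268 CPM after filtered air. In cluster 1 it had 9627 CPM after 1.5 ppm and 9119 CPM after filtered air, a ratio of 1.06. Cluster 5, led by Rgcc, Fabp4 and Gpnmb, had 47400 CPM after 1.5 ppm, against 18760 CPM after filtered air. Over the joined libraries the 12 clusters ran from 3135 CPM in cluster 9, a cluster of high mitochondrial share (median 7.17%) and low depth, to 45850 CPM in cluster 14, led by the cystine carrier gene Slc7a11 and the haem oxygenase gene Hmox1.

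The mitochondrial share of macrophages also differed between libraries, with medians of 4.12%, 3.95% and 2.31%, and so did the share of barcodes over the limit. Among the barcodes over the limit that passed the other filters (1594, 842 and 454, not sorted into classes), Fth1 had 2761, 4263 and 6403 CPM, lower than in the kept cells but in the same order. Among macrophages of 2.5 to 4% mitochondrial UMIs, the log2 ratio of Fth1 was 0.77 for 1.5 ppm against filtered air and 0.28 for 1 ppm against filtered air, near the 0.85 and 0.30 of the class. Without the 3694 cells holding 3 or more UMIs of G2 and M phase genes it was 0.71 and 0.34.

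The exporter gene moved the other way. Slc40a1 (ENSMUSG00000025993) had 14.01 CPM after filtered air (639 UMIs, interval 12.9 to 15.1), 4.71 CPM after 1 ppm (166 UMIs, 4.02 to 5.48) and 5.17 CPM after 1.5 ppm (441 UMIs, 4.70 to 5.68). Both ozone libraries were low and overlapped each other, and filtered air stood above them with no overlap. The level was 0.336 times that of filtered air at 1 ppm (interval 0.282 to 0.399) and 0.369 times at 1.5 ppm (0.326 to 0.418). Between the ozone libraries the ratio, 1.5 ppm over 1 ppm, was 1.10 (0.917 to 1.32). A Slc40a1 UMI was found in 8.53% of macrophages after filtered air, 5.11% after 1 ppm and 5.47% after 1.5 ppm. T-cell-like and migratory-dendritic-like cells gave the background, with 0 of 98 cells, which allows a share of up to 3.06%, and 0 of 95, which allows up to 3.16%. Their median depths were 3700 and 9321 UMIs, against 14086.5 in macrophages. In cells thinned to 5000 UMIs the shares were 3.63%, 2.20% and 2.25%, from 107, 43 and 112 cells. The ozone shares then lay under the 3.06% and 3.16% that the background allows. Filtered air lay just above these, but under the exact limits of 3.69% and 3.81%. By this comparison none of the thinned shares could be told from free RNA.

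Much of the Slc40a1 signal came from few cells, an uneven spread that the intervals of its level leave out. In filtered air 37 of 3012 macrophages held 5 or more Slc40a1 UMIs, and these 37 held 45.5% of the class's UMIs of the gene. The matching numbers were 3 cells with 19.3% after 1 ppm and 11 cells with 14.1% after 1.5 ppm. The highest count in a single cell was 18 after filtered air, 14 after 1 ppm and 7 after 1.5 ppm. Of the cells with 5 or more, 27 of 37 after filtered air, 2 of 3 after 1 ppm and 7 of 11 after 1.5 ppm lay in cluster 14, where Slc40a1 was among the 10 leading genes although it had not been used for clustering. Cluster 14 held 107, 16 and 88 cells, or 3.55%, 0.802% and 1.66% of the class, and only 5 of the 12 class markers counted for it. It held 50.7%, 22.9% and 25.6% of the class's Slc40a1 UMIs. Cluster 7, led by the metallothionein genes Mt2 and Mt1, held 18.5%, 19.9% and 11.3% of them. The sizes of these clusters are not compared between libraries, because genes that differ between the libraries define them.

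**Figure D3:**
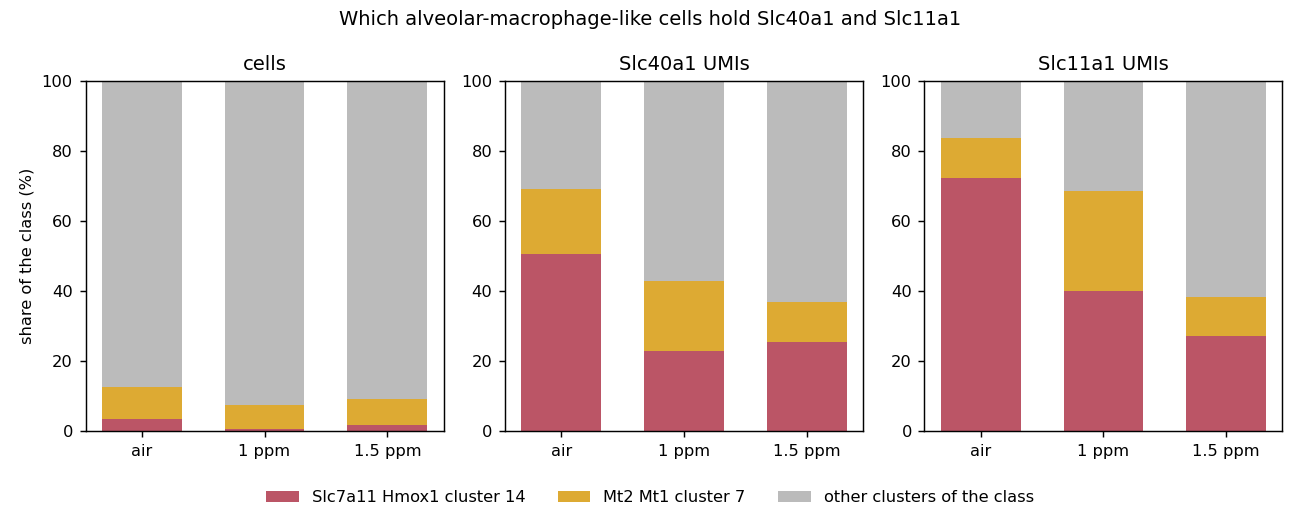
Share of alveolar-macrophage-like cells (left), of their Slc40a1 UMIs (middle) and of their Slc11a1 UMIs (right) that lay in cluster 14, cluster 7 and the other clusters, in percent, 1 bar per library. Cluster 14 held 3.55% of the cells of filtered air but 50.7% of their Slc40a1 UMIs and 72.3% of their Slc11a1 UMIs.

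Slc40a1 was also lower at 1.5 ppm within both of these clusters, and in both ozone libraries outside them. Within cluster 14 it had 114.7 CPM after 1 ppm and 159.0 CPM after filtered air, with overlapping intervals (81.1 to 157.4 and 142.2 to 177.3). After 1.5 ppm it had 90.2 CPM there (74.3 to 108.4), 0.567 times the level of filtered air (0.454 to 0.705). Within cluster 7 it had 12.0 CPM after 1 ppm and 8.48 CPM after 1.5 ppm, against 29.5 CPM after filtered air. Without cluster 14 the class had 7.23, 3.66 and 3.90 CPM, so the lower level in ozone remained past 1.5-fold. Without clusters 14 and 7 it had 4.98, 2.95 and 3.56 CPM, a log2 ratio to filtered air of −0.75 at 1 ppm and −0.49 at 1.5 ppm, which at 1.5 ppm is under 1.5-fold. Over the clusters with at least 50 cells in both libraries and enough UMIs for a ratio, Slc40a1 was lower at 1.5 ppm in 8 of 10 and lower at 1 ppm in 7 of 8, with intervals wholly below 1 in 3 and in 4 of them. In cells with fewer than 3 UMIs of G2 and M phase genes it had 8.95, 4.71 and 4.13 CPM, log2 ratios to filtered air of −0.92 at 1 ppm and −1.11 at 1.5 ppm. Among barcodes over the mitochondrial limit it had 24.2, 3.79 and 9.63 CPM.

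Slc11a1 (ENSMUSG00000026177), the phagosomal metal carrier, was the rarer of the low genes and its direction at 1.5 ppm depended on which cells were taken. It had 3.40 CPM after filtered air (155 UMIs, 2.88 to 3.98), 0.992 CPM after 1 ppm (35 UMIs, 0.691 to 1.38) and 2.02 CPM after 1.5 ppm (172 UMIs, 1.73 to 2.34). No 2 of these intervals overlap, so 1 ppm was lowest and filtered air highest. The ratio to filtered air was 0.292 at 1 ppm (0.196 to 0.424) and 0.594 at 1.5 ppm (0.475 to 0.743). Set against 1 ppm, 1.5 ppm had 2.03 times the level (1.41 to 3.01). Cluster 14 held 112 of the 155 Slc11a1 UMIs after filtered air, 14 of 35 after 1 ppm and 47 of 172 after 1.5 ppm. Without it, the class had 0.987, 0.601 and 1.49 CPM, so 1.5 ppm stood above filtered air, with a log2 ratio of 0.57. Without clusters 14 and 7 it had 0.632, 0.342 and 1.36 CPM, a log2 ratio of 1.06 for 1.5 ppm against filtered air. The lower level at 1 ppm kept its direction in both cases, from 21 and 11 UMIs. The interval of filtered air overlapped that of 1 ppm in both cases, and without cluster 14 alone also that of 1.5 ppm. Cells with fewer than 3 UMIs of G2 and M phase genes had 1.34, 0.831 and 1.25 CPM, with overlapping intervals, and there the log2 ratio to filtered air was −0.65 at 1 ppm and −0.11 at 1.5 ppm.

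Within clusters the carrier had no common direction. Of the 7 clusters with a ratio for 1.5 ppm against filtered air, 4 were above 0 and 3 below on the log2 scale (median 0.16), and 1 interval lay wholly above 1 and 1 wholly below. Of the 3 with a ratio for 1 ppm against filtered air, 1 was above 0 and 2 below, and no interval lay wholly above or below 1. In cluster 14 it had 37.5 CPM after 1.5 ppm (27.6 to 49.9), against 55.0 CPM after filtered air (45.3 to 66.2). In cluster 5 it had 5.77 CPM after 1.5 ppm (4.06 to 7.95), against 1.32 CPM after filtered air (0.486 to 2.88), the opposite direction. Cluster 3, led by genes that include the fatty acid elongase gene Elovl6, held 1037 cells and no Slc11a1 UMI. Neutrophils are rich in this gene, so their markers in the macrophage class are given beside it. The 10 neutrophil markers summed to 88.1, 80.3 and 81.1 CPM there, with Retnlg at 0 in filtered air and no marker at 0 in the ozone libraries. The single markers did not move together. S100a9 had 0.175, 0.0284 and 1.61 CPM, highest at 1.5 ppm, while Csf3r had 31.1, 23.6 and 14.5 CPM and Cxcr2 5.24, 3.23 and 2.84 CPM, lowest at 1.5 ppm. There were 1.13 Slc11a1 UMIs for every 100 of S100a9 in neutrophil-like cells and 10.4 in cluster 13, an unnamed cluster almost wholly of the 1.5 ppm library, against 125.5 in macrophages after 1.5 ppm. The part of RNA from these cells in the Slc11a1 level of macrophages was not tested.

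The uptake genes differed little, apart from Tfrc at the higher dose. Tfrc (ENSMUSG00000022797) had 12.1 CPM after filtered air (551 UMIs, 11.1 to 13.1), 11.5 CPM after 1 ppm (405 UMIs, 10.4 to 12.7) and 16.8 CPM after 1.5 ppm (1429 UMIs, 15.9 to 17.7). Filtered air and 1 ppm overlapped, and 1.5 ppm stood above both. Its level at 1.5 ppm was 1.39 times that of filtered air (1.26 to 1.53) and 1.46 times that of 1 ppm (1.31 to 1.63), and at 1 ppm it was 0.951 times that of filtered air (0.834 to 1.08). It was higher at 1.5 ppm than after filtered air in 10 of 11 clusters, with the interval above 1 in 6, and higher than at 1 ppm in 10 of 10. A UMI was found in 17.3% of macrophages after 1.5 ppm, against 12.9% after filtered air, and in 6.81% (6.13 to 7.55) against 5.35% (4.57 to 6.23) once cells were thinned, where the intervals overlap. The share was 5 of 98 T-cell-like cells (5.10%) at a median of 3700 UMIs and 2 of 95 migratory-dendritic-like cells (2.11%) at 9321 UMIs, so the thinned shares of macrophages were close to that of T-cell-like cells.

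Dividing cells take up iron through this receptor, so cycling cells were also described separately. Over the joined libraries Tfrc was highest among the 12 macrophage clusters in cluster 9 (22.4 CPM, 18.5 to 26.8), which is not led by cycle genes, and lowest in cluster 2 (7.03 CPM, 5.75 to 8.51). Cluster 6, led by the replication genes Mcm6 and Mcm2, had 21.2 CPM, cluster 5 had 19.6, cluster 4, which holds the cycle gene Top2a among its leading genes, 15.8, and the mitosis cluster 11 had 14.1 CPM. Clusters led by cycle genes thus did not all lie above the others. Cells with 3 or more UMIs of G2 and M phase genes had 13.03, 13.7 and 18.2 CPM, and the other cells had 11.5, 10.1 and 14.9 CPM. The level at 1.5 ppm was highest among the libraries in both.

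Slc11a2 (ENSMUSG00000023030), the endosomal iron carrier, had similar levels in the 3 libraries. It had 8.18 CPM after filtered air (373 UMIs, 7.37 to 9.05), 8.59 CPM after 1 ppm (303 UMIs, 7.65 to 9.62) and 8.26 CPM after 1.5 ppm (704 UMIs, 7.66 to 8.89). The 3 intervals overlapped. The ratio to filtered air was 1.05 at 1 ppm (0.900 to 1.23) and 1.01 at 1.5 ppm (0.890 to 1.15). Both intervals lie within 1.5-fold in either direction. They hold counting error only, so they cannot exclude such a change between exposures. Among the 12 macrophage clusters its joined level ran from 7.27 CPM in cluster 10 to 18.8 CPM in cluster 14 (68 UMIs, 14.6 to 23.8).

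Cp (ENSMUSG00000003617), the ferroxidase, was near the limit of detection in macrophages. It had 1.36 CPM after filtered air (62 UMIs, 1.04 to 1.74), 1.33 CPM after 1 ppm (47 UMIs, 0.979 to 1.77) and 2.43 CPM after 1.5 ppm (207 UMIs, 2.11 to 2.78). Filtered air and 1 ppm overlapped, and 1.5 ppm stood above them at 1.79 times filtered air (1.34 to 2.41) and 1.82 times 1 ppm (1.32 to 2.56). No macrophage held more than 2 of its UMIs. A Cp UMI was found in 3.77% of macrophages after 1.5 ppm, against 2.03% after filtered air, and in 1 of 98 T-cell-like and 0 of 95 migratory-dendritic-like cells. Its joined level of 1.90 CPM lay inside the interval of the T-cell-like class (2.13 CPM, 0.0540 to 11.9), so in macrophages it could not be told from free RNA by this comparison.

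Airway cells had the highest level of Cp. Airway-epithelial-like cells had 99.5 CPM (82.3 to 119.3), with a UMI in 23 of 152 cells, and 114 of their 117 Cp UMIs came from the 1.5 ppm library. That library also gave 103 of the 152 cells and 1022848 of their 1175638 UMIs of all genes. In the macrophage class the 10 airway markers summed to 102.1, 82.0 and 139.8 CPM, with no marker at 0 in filtered air or 1.5 ppm and 2 at 0 after 1 ppm. The highest marker of the list had 52.1, 41.0 and 99.2 CPM. The sum, like Cp, was highest at 1.5 ppm, but the rest of the list without its highest marker was not. The club cell marker Scgb1a1 had 31.2, 27.7 and 28.8 CPM in macrophages and did not follow the sum. There were 0.0830 Cp UMIs for every 100 of Scgb1a1 in airway-epithelial-like cells, against 4.36, 4.81 and 8.43 in macrophages. The part of airway RNA in the Cp level of macrophages was not tested. Among barcodes over the mitochondrial limit Cp had 6.04, 10.5 and 28.9 CPM, and with those barcodes joined the log2 ratio for 1.5 ppm against filtered air was 0.49.

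Read against all genes of the macrophage class, the counts of genes past 1.5-fold were as follows, among 12773 genes with at least 100 UMIs over the 3 libraries, which all 7 iron genes had. For 1 ppm against filtered air 0 of 7 were higher, with a background of 2.08%, and 2 of 7 were lower, Slc40a1 and Slc11a1, with a background of 3.16%. For 1.5 ppm against filtered air 2 of 7 were higher, Fth1 and Cp, with a background of 11.4%. Slc40a1 and Slc11a1 were again lower, 2 of 7, with a background of 4.42%. For 1.5 ppm against 1 ppm 2 of 7 were higher, Slc11a1 and Cp, with a background of 10.4%, and 0 of 7 were lower, with a background of 3.19%. The ozone comparisons share the filtered air library. The median log2 ratio of the 7 genes was −0.02 for 1 ppm against filtered air, 0.39 for 1.5 ppm against filtered air and 0.54 for 1.5 ppm against 1 ppm, beside −0.05, −0.05 and 0.01 for all genes. With trimmed-mean (TMM) scaling the split over all genes at 1 ppm was 364 higher and 303 lower, against 266 and 403 here, and with median-of-ratios scaling 349 and 316; the calls of the 7 genes were the same under both. Where at least 50 CPM in the higher library was also asked for, which only Fth1 and Ftl1 reached, Fth1 was higher for 1.5 ppm against filtered air (1 of 2, background 8.07%) and 0 of 2 were lower (3.79%). At that level 0 of 2 were past the fold for 1 ppm against filtered air (backgrounds 0.373% higher and 0.82% lower) or for 1.5 ppm against 1 ppm (4.63% and 1.36%).

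**Figure D4:**
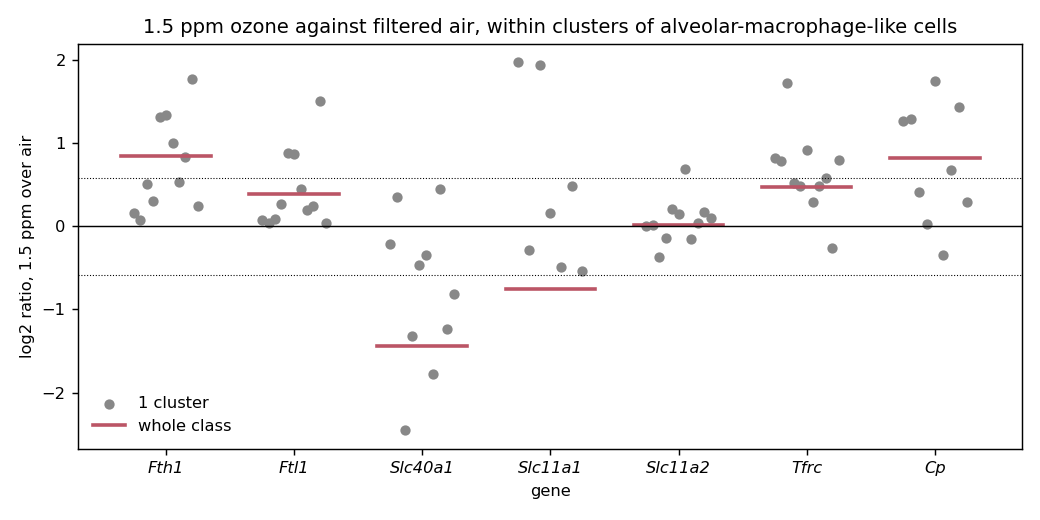
Log2 ratio of 1.5 ppm ozone over filtered air for each gene within clusters of alveolar-macrophage-like cells (grey points, clusters with at least 50 cells in both libraries, at least 1 UMI in each and more than 3 in one) and over the whole class (red bar). Dotted lines mark 1.5-fold; the Fth1 points run from 0.08 to 1.78, all above 0, and 8 of the 10 Slc40a1 points lie below 0.

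Across cell classes with the libraries joined, ferritin was highest in an unnamed cluster that came almost wholly from the 1.5 ppm library. Cluster 13, led by Ccl4, Ccl3 and Thbs1, held 0, 1 and 248 cells and too few fixed markers for a name, with a median of 2077 UMIs per cell and a mitochondrial share of 0.12%. Fth1 was at 52060 CPM (51520 to 52600) in it, and Fth1 and Ftl1 took 8.59% of its UMIs. Neutrophil-like cells (1, 11 and 79 cells) followed at 26270 CPM, then alveolar-macrophage-like cells at 19920 and unnamed cluster 12, led by haemoglobin genes, at 19740 CPM, whose intervals overlapped. C1q-macrophage-like cells had 14220, cluster 8 had 11700, airway-epithelial-like cells 8904, T-cell-like cells 5638 and migratory-dendritic-like cells 4751 CPM, with no overlap between neighbours. The light chain kept a different order, with neutrophil-like cells at 5631 CPM, level with airway-epithelial-like cells at 5685 CPM. The heavy to light ratio was thus 4.67 in neutrophil-like cells (4.41 to 4.94), the highest of any class, and 1.10 in migratory-dendritic-like cells (1.06 to 1.15), the lowest. Joined levels follow the library that gave most cells, and class and library cannot be told apart for cluster 13 and the neutrophil-like cells. Pseudogene copies of ferritin can share reads with these genes in every class.

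Cluster 13 also carried the exporter and the phagosomal carrier. Slc40a1 was at 332.1 CPM there (290.4 to 378.2), with a UMI in 99 of 249 cells, above neutrophil-like cells at 37.1 CPM (10 UMIs, 17.8 to 68.3) and macrophages at 7.50 CPM. Below these, the intervals of macrophages, C1q-macrophage-like cells (6.49 CPM), cluster 12 (4.24 CPM) and cluster 8 (2.93 CPM) overlapped from each to the next, and T-cell-like and migratory-dendritic-like cells had no UMI. Slc11a1 was at 144.8 CPM in neutrophil-like cells (102.9 to 197.9) and 135.5 CPM in cluster 13 (109.3 to 166.0), which overlapped. It was next in C1q-macrophage-like cells at 24.2 CPM (18.3 to 31.5), where 1.5 ppm had 42.4 CPM (41 UMIs, 30.4 to 57.5), against 12.4 CPM after filtered air (11 UMIs, 6.21 to 22.3). Over all kept cells, with cluster 13 and the neutrophils included, Slc40a1 had 13.03, 4.90 and 7.28 CPM and Slc11a1 3.31, 1.26 and 3.63 CPM, so the lower Slc11a1 level at 1.5 ppm was not seen in the whole lavage.

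The uptake genes and Cp led elsewhere. Tfrc was highest in airway-epithelial-like cells at 50.2 CPM (38.2 to 64.7), with no overlap with the next, and all other neighbours in its order overlapped, from cluster 12 at 19.1 CPM to migratory-dendritic-like cells at 4.00 CPM. Slc11a2 had overlapping neighbours throughout, from 13.4 CPM in C1q-macrophage-like cells to 0 UMIs in 91 neutrophil-like cells, which allows up to 13.7 CPM by the exact interval. Cp was highest in airway-epithelial-like cells and next in C1q-macrophage-like cells at 10.4 CPM (24 UMIs, 6.66 to 15.5).

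**Figure D5:**
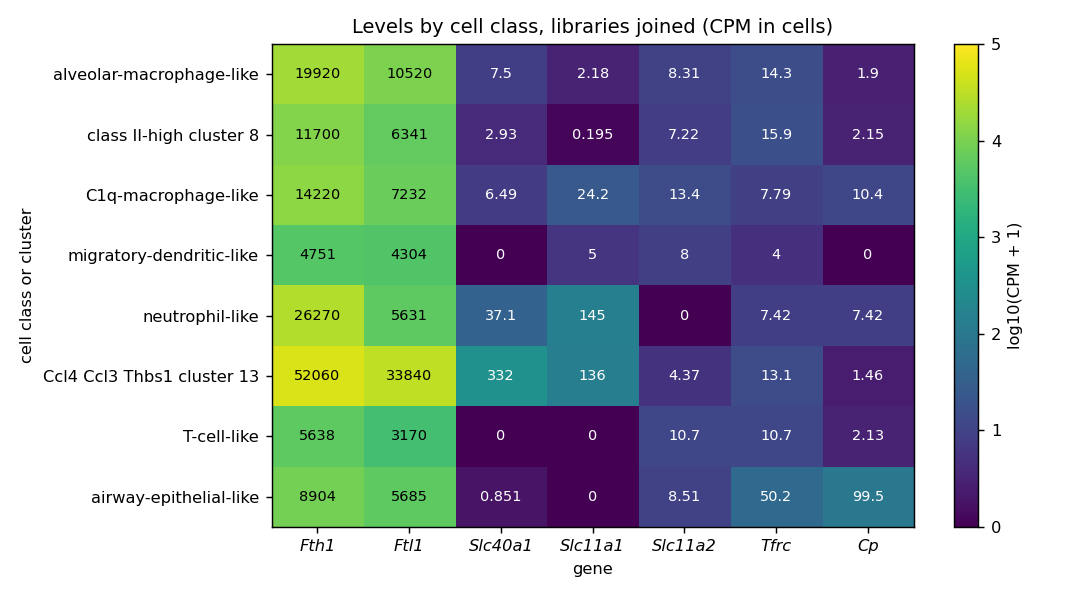
Level of each gene by cell class or cluster with the 3 libraries joined, printed in CPM, with colour for log10(CPM + 1). Ferritin genes, Slc40a1 and Slc11a1 are high in cluster 13 (52060 and 332 CPM for Fth1 and Slc40a1), and Cp and Tfrc are highest in airway-epithelial-like cells (99.5 and 50.2 CPM).

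Over the 20 clusters, which share libraries and differ in depth, the pattern of Fth1 was most like those of the glycolysis genes Pgam1 (Pearson r of log2(CPM + 10) 0.936) and Pkm (0.932) and then Ftl1 (0.926). Ftl1 was most like Ftl1-ps1 (0.986), Txn1 (0.933) and Fth1. Slc40a1 was most like Lrrc14b (0.928) and Cpeb4 (0.917), and Slc11a1 most like Pla2g7 (0.972), Clec4d (0.963) and the chemokine gene Cxcl2 (0.958). Slc40a1 and Slc11a1 had 0.857 with each other and 0.629 and 0.513 with Fth1, while Slc11a2 had −0.14 and Tfrc −0.02 with Fth1. Cp was most like Hes1 (0.979), Etl4 (0.977) and Ccn1 (0.968). For Tfrc and Slc11a2 the closest genes were Liph (0.844), Grpel2 (0.814) and Prkci (0.784), and Larp4 (0.846), Nploc4 (0.836) and Sec24d (0.816). These correlations are descriptions of 20 points, and clusters 12, 13, 16, 17 and 19 had median depths of 993 to 3700 UMIs per cell, below all 12 macrophage clusters.

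Other genes of iron handling were compared in the macrophage class from 4 lists of 49 genes, of which 39 had at least 100 UMIs. At 1 ppm against filtered air 1 of 39 was higher and 1 lower by 1.5-fold, and at 1.5 ppm 3 were higher and 1 lower, beside the backgrounds above. Their median log2 ratio was −0.01 at 1 ppm and 0.05 at 1.5 ppm. The lower gene in both was Hmox1, which frees iron from haem, with 419.8 CPM after filtered air, 177.0 after 1 ppm and 187.2 after 1.5 ppm. Its ratio to filtered air was 0.422 at 1 ppm (0.410 to 0.434) and 0.446 at 1.5 ppm (0.437 to 0.455). Hmox1 is also a leading gene of cluster 14, which held 3.55%, 0.802% and 1.66% of the class. The part of that cluster in the Hmox1 difference was not tested. In the same list the biliverdin reductase Blvrb had 119.5, 118.6 and 162.9 CPM, and Flvcr2, a transporter of the FLVCR family, 199.3, 175.5 and 142.6 CPM.

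None of the 8 genes of iron sensing and ferritin turnover was past 1.5-fold in either comparison. The backgrounds were 2.08% higher and 3.16% lower at 1 ppm and 11.4% and 4.42% at 1.5 ppm, so none of 8 lies near these shares. Ncoa4, the receptor that carries ferritin to lysosomes for breakdown, had 348.3 CPM after filtered air, 358.5 after 1 ppm and 250.0 after 1.5 ppm, a ratio of 0.718 to filtered air at 1.5 ppm (0.703 to 0.733). Ireb2, which encodes iron regulatory protein 2, had 73.9, 60.1 and 65.3 CPM, and Bach1, a haem-binding repressor of Hmox1 and the ferritin genes, 152.0, 117.3 and 131.5 CPM. Both were lowest at 1 ppm. Among the 14 measured genes of mitochondrial iron, 2 were higher at 1.5 ppm by 1.5-fold, a share near the background of 11.4%, and 1 of them is described. Cisd1, an outer membrane iron-sulphur protein, had 78.9, 86.4 and 133.2 CPM, 1.69 times the level of filtered air at 1.5 ppm (1.63 to 1.75). Isca2, an iron-sulphur cluster assembly gene, had 18.1, 22.1 and 26.8 CPM, just under 1.5-fold at 1.48 (1.37 to 1.61).

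In the list of transferrin and inorganic iron uptake 1 of 8 measured genes was higher in both ozone libraries (backgrounds of 2.08% at 1 ppm and 11.4% at 1.5 ppm, the second near 1 of 8), the siderophore-binding Lcn2, from 5, 19 and 76 UMIs in the class. Its ratio was 4.92 at 1 ppm (1.78 to 16.8) and 8.13 at 1.5 ppm (3.34 to 25.8). Neutrophils and airway cells also make Lcn2, their markers in the class are given above, and their part in this result was not tested. Ltf, another secreted iron binder, had 24, 20 and 63 UMIs, and the intervals of both its ratios to filtered air hold 1, and the lysosomal channel gene Mcoln1 had 29.8, 28.1 and 22.1 CPM.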

How the data were processed

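The 3 libraries were deposited as whole-number UMI counts per gene and barcode. Per the file headers the authors ran Cell Ranger 8.0.0; per the submitters' processing notes the genome was GRCm39 (mm39). The handling of intronic reads is not given in the sources used. The 7 genes and the lists were chosen with earlier results of these data known. Kept barcodes were scaled to 10000 UMIs, log transformed, reduced to 30 components of 2000 variable genes without the 7 iron genes, and clustered (15 neighbours, Leiden resolution 1.0; scanpy 1.11.5, leidenalg 0.10.2). Class names were rebuilt from markers: 1 counted for a cluster when it was detected in 25% of the cells and its level reached 25% of that of the highest cluster, a scoring chosen with the data in view. No doublet caller was run and no doublet removed. UMIs were summed by library and class with exact Poisson, conditional and Clopper-Pearson intervals at 95% (scipy 1.17.1), which cover counting error only; the scripts were tested on simulated data. Log2 ratios add 1 UMI to each sum, and a count of 0 allows up to 3 counts. Besides the 7 genes, those named were the 3 with the largest log2 ratio over both ozone libraries in each list and the 3 most like each gene over clusters; markers, cluster-leading genes and Ftl1-ps1 identify sources. Some genes that this rule names are not reported here. Settings varied were the cell filter, the classes, the scaling (edgeR 4.0.16 for TMM) and the minimum count. Sequences are from GENCODE M21 on GRCm38, an earlier build, so coordinates are not given.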

Additional observations from a re-analysis of the deposited data

How the results depend on the processing

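No paired analysis was possible because each group is 1 library and the result comes from no test, and no replicate could be left out. Slc11a1, lower at 1.5 ppm than after filtered air in the macrophage class (log2 ratio −0.75), was higher without the Slc7a11 and Hmox1 cluster (0.57, a setting chosen after seeing the data), without that and the metallothionein cluster (1.06) and with all cells taken (0.13). Of the 7 genes, 2 were lower at 1.5 ppm by 1.5-fold; 1 was lower in all cells, without the Slc7a11 and Hmox1 cluster, or without cycling cells (at least 3 UMIs of G2 and M phase genes), and 0 were lower without both clusters. The 2 higher at 1.5 ppm became 1 with no mitochondrial filter or in cells of 2.5 to 4% mitochondrial UMIs, since Cp was under the fold or the count minimum. They became 4 without both clusters (Ftl1 and Slc11a1 added). The 2 higher at 1.5 ppm than at 1 ppm became 1 in cells of 2.5 to 4% mitochondrial UMIs or without cycling cells, 3 with the mean of each cell's CPM (Tfrc added), and 4 without the 5% of cells with most UMIs, also chosen after seeing the data; with no mitochondrial filter they were Fth1 and Slc11a1 in place of Slc11a1 and Cp. With at least 50 CPM asked for, 0 were lower in any comparison, 1 was higher at 1.5 ppm against filtered air and 0 at 1.5 ppm against 1 ppm, because only the ferritin genes reach that level. Fth1, Ftl1 and Slc40a1 kept their direction against filtered air under every setting run, Fth1 at log2 0.71 to 1.07 and Slc40a1 at −1.59 to −0.49 for 1.5 ppm. Other scalings moved the median of all genes by under 0.1. The cause of these shifts was not tested. Depth limits Slc11a1 at 1 ppm (35 UMIs) and Cp (62, 47 and 207 UMIs).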
